A study of Mus musculus with 6 samples.

Results

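The unfolded protein and heat shock response was followed here through 10 genes, chosen by name with earlier results of these data known: Hspa5, Hsp90b1, Xbp1, Atf4, Ddit3, Trib3, Hspa1a, Hspa1b, Hsph1 and Dnajb1. Of the 35122 genes in the deposited table, 11 carried one of these symbols, because Ddit3 was listed a second time as a short gene (105 bp of exon) lying within the first, which held 1 count in all 6 libraries and was not tested. The remaining 10 all passed the filter on low counts and were among the 13925 genes tested. RNA came from the floating adipocyte fraction of epididymal fat of male C57BL/6 mice aged 10 to 11 months on chow, 3 of genotype PU.1 fl/fl (control) and 3 of genotype AdipoqCre_PU.1 fl/fl (aPU.1KO), with 1 library per mouse. Both groups carried the floxed PU.1 alleles, and only aPU.1KO mice carried Cre, which is driven by the adiponectin promoter and so acts in mature adipocytes. The study describes its control mice as littermates, and which of these mice shared a litter is not given in the sources used here. The fat was minced and digested with collagenase at 37°C before the cells were floated, and such a fraction can hold other cells of the fat pad. Any gene could therefore differ through fewer cells of a type or through less RNA per cell, and these cannot be told apart in bulk RNA.

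Cells answer unfolded protein in separate compartments with separate programmes. In the endoplasmic reticulum (ER), the chaperone BiP (Hspa5) holds the sensors IRE1, PERK and ATF6 inactive, and its release starts the unfolded protein response: IRE1 splices Xbp1 mRNA, PERK slows translation and lets ATF4 be made, and ATF6 is cut to a transcription factor. In the cytosol and nucleus, the factor HSF1 is freed when HSP70 and HSP90 chaperones are occupied and switches on Hspa1a, Hspa1b, Hsph1 and Dnajb1. Adipocytes secrete large amounts of adiponectin and leptin through the ER, and both programmes are known to respond to heat, to nutrient load and to handling of tissue.

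DNA elements known from these programmes were present at the promoters of several of the 10 genes. All 10 had at least 1 window in the RefSeq promoter table (GRCm38.p6), 12 windows in all, each running from 250 bases before to 50 bases after the annotated start. The stretches below are those that hold a heat shock element or an ER stress response element, and positions are counted from the RefSeq start. Each is written 5′ to 3′ on the gene's own strand, with the bases of the element in capitals.

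Hspa1a (chr17:34972157-34972286, minus strand, -130 to -1): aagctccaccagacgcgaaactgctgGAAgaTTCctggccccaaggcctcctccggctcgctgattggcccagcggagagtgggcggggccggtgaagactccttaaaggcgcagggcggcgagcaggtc
Hspa1b (chr17:34959239-34959368, minus strand, -130 to -1): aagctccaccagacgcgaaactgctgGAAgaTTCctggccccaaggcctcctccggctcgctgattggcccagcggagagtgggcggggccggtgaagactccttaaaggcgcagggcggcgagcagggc
Hsph1 (chr5:149636287-149636316, minus strand, 21 to 50): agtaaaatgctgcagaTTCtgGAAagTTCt
Hspa5 (chr2:34772020-34772048, plus strand, -70 to -42): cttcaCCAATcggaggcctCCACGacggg
Hsp90b1 (chr10:86705524-86705694, minus strand, -250 to -80): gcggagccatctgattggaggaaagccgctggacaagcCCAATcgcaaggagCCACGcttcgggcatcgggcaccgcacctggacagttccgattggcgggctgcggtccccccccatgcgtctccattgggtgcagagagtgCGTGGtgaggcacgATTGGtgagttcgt

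The heat shock element is bound by HSF1 and is built of alternating GAA and TTC units. Hspa1a and Hspa1b had the same core, GAANNTTC, at -104, and their printed stretches were alike at 129 of 130 bases. Hsph1 had the core TTCNNGAA at -33 from the upstream of its 2 RefSeq starts, and a longer element of 3 units that contains both cores, shown above, from 37 to 49, both inside the gene as GENCODE M21 annotates it, with a start 40 bases further upstream. Of all 32851 windows, 7.86% held GAANNTTC, 8.52% held TTCNNGAA and 0.597% held the longer element (GAA, TTC and GAA, or TTC, GAA and TTC, each 2 bases apart and with any 1 base on either side), with either strand searched and overlaps allowed, so a core alone is common. The ER stress response element is CCAAT, 9 bases and CCACG, the site through which ATF6 and XBP1 act with NF-Y, and only 0.119% of windows held it. Hspa5 had 1 copy at -65, inside the gene as GENCODE annotates it (120 bases further upstream), and Hsp90b1 had 1 at -212 and another on the opposite strand at -107, both upstream of either start. Trib3 had the C/EBP-ATF composite core TGATGNAA, which 3.97% of windows held, at 15 to 22. Neither window of Dnajb1, and none of those of Xbp1, Atf4 and Ddit3, held any of the motifs searched. Those motifs also included ERSE-II (ATTGG, 1 base, CCACG, in 0.0365% of windows), TGACGTGG (0.676%) and TGACGTCA (1.79%), which no window of the 10 genes held.

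The libraries held between 20550252 and 69283842 counts, the deepest being that of control mouse 1, so that even Trib3, the scarcest of the 10 genes, had at least 110 counts in every mouse. Spi1, which encodes PU.1, stood at 24.3, 6.35 and 26.7 CPM (counts scaled to a common library size) in the control mice and at 3.20, 1.22 and 4.17 in the aPU.1KO mice, so the groups did not overlap (log2 fold change -2.75, SE 0.64, edgeR adjusted p = 0.0788, DESeq2 adjusted p = 0.000115). These counts cover the whole gene, also exons that Cre does not remove, and RNA from other cells of the fraction. Control mouse 2 stood apart from the other control mice in Spi1 and in the summed level of 12 macrophage markers, 518 CPM against 2052 and 1984. Macrophage markers were lower in aPU.1KO mice in 12 of 12 genes (209 to 364 CPM summed; 12 at p under 0.05 before adjustment, where 13.7% of all genes were lower) and adipose progenitor markers in 10 of 10 (735 to 1057 CPM against 1349.7 to 1811; 7 at that p). The 10 adipocyte markers summed to 51362 to 59518 CPM in aPU.1KO and 41740.0 to 45592 CPM in control mice, with 9 of 10 higher (7 higher and 1 lower at that p, where 11.9% of all genes were higher), and these sums were far above those of the other cell types in every mouse. Hepatocyte markers, which do not belong to fat, were low and lower in aPU.1KO mice in 8 of 8 genes (18.7 to 24.9 against 41.7 to 65.4 CPM; 8 at that p). Endothelial markers overlapped between the groups (341 to 751 against 574 to 840.2 CPM), as did mesothelial markers (7.72 to 9.90 against 5.51 to 22.7 CPM). The 9 lymphocyte markers, of which 5 were tested, summed to 2.54 to 4.36 against 4.95 to 7.30 CPM, without overlap. The part of these cells in the results below was not tested.

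Across the whole table, 33 genes passed an adjusted p of 0.05 by edgeR, or 0.237% of those tested, and none of the 10 stress response genes was among them. Genes past that threshold are said to be called. The log2 fold changes of the 10 ran from -0.33 to 0.96, with a median of 0.04 beside 0.01 over all genes tested. Before adjustment, at p under 0.05, 2 of the 10 were higher in aPU.1KO mice (Dnajb1 and Xbp1), where 11.9% of all genes were, and 0 were lower, where 13.7% of all genes were. Groups that did not overlap were seen for Xbp1 (higher, as for 16.7% of all genes) and in the lower direction for none of the 10 (15.5% of all genes). DESeq2, which called 13.4% of all genes, called 1 of the 10, Dnajb1. Without control mouse 2, edgeR called 202 genes higher and 991 lower (1.41% and 6.93% of all genes), and 0 of the 10. The 2 genes higher before adjustment became 1 (Dnajb1) without control mouse 1 or control mouse 3 and 3, with Ddit3, without aPU.1KO mouse 3, and the 0 lower became 1 (Hsph1) without aPU.1KO mouse 1 and 2 (Hspa1a and Hspa1b) without aPU.1KO mouse 2. The shares of all genes moved too: those higher before adjustment were 4.15%, 11% and 7.17% without control mouse 1, 2 or 3 and 8.83%, 10% and 13.3% without aPU.1KO mouse 1, 2 or 3. Those lower were 8.1%, 15.1% and 10.3% without the control mice in that order and 11.9%, 14.9% and 14.2% without the aPU.1KO mice.

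**Figure D1:**
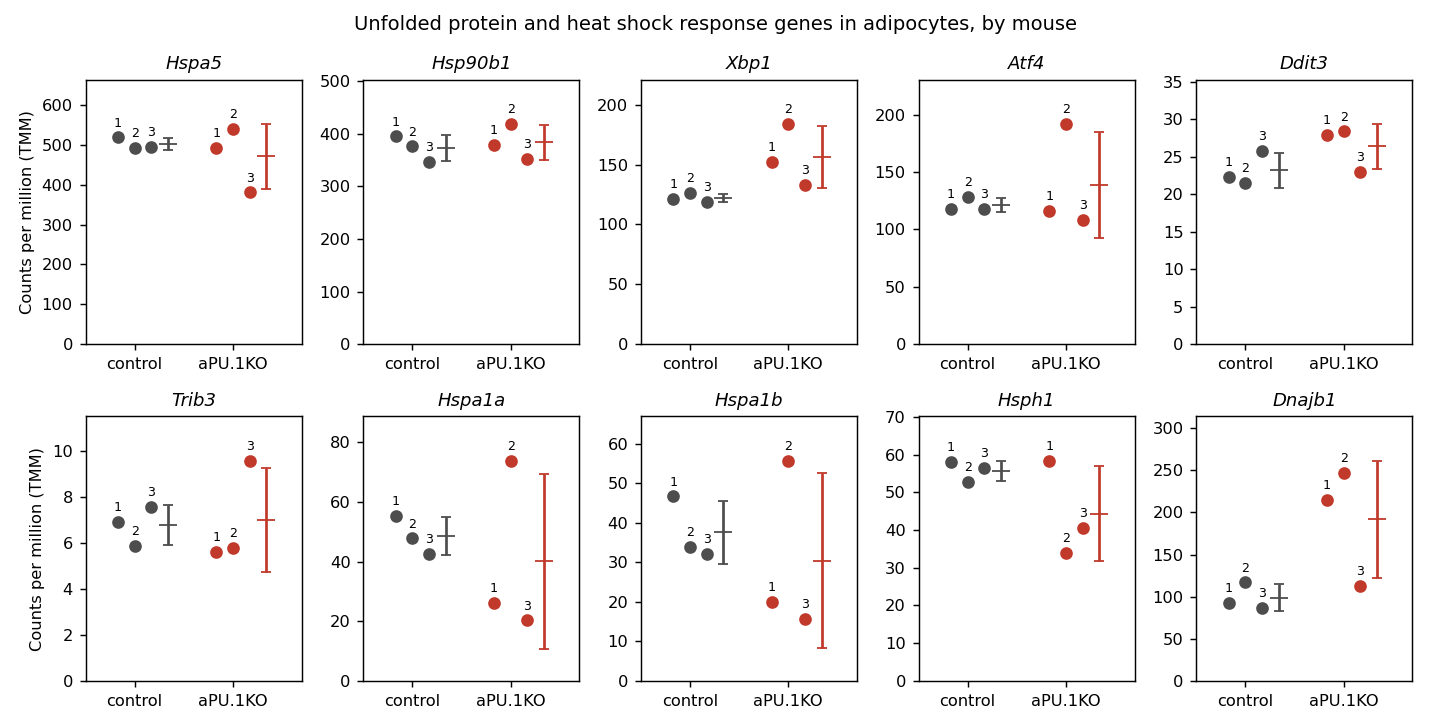
CPM (TMM-scaled, vertical axes starting at 0) of the 10 genes in each mouse, with control mice in grey and aPU.1KO mice in red. Numbers name the mouse and the bar beside each group is the mean ± SD of 3 mice; aPU.1KO mouse 2 is the highest of its group in 8 of the 10 genes and mouse 3 the lowest in 8.

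The ER chaperones were the most abundant of the set and did not separate the groups. Per kilobase of exon, Hspa5 led in control mice at 119 ± 3.52 CPM (SD, n = 3), followed by Hsp90b1 at 92.4 ± 6.12, Atf4 at 51.5 ± 2.49, Xbp1 at 37.6 ± 0.961 and Dnajb1 at 30.8 ± 5.06. Hspa1a at 16.4 ± 2.11, Ddit3 at 13.5 ± 1.32 and Hspa1b at 13.4 ± 2.84 came next with overlapping ranges, and Hsph1 at 7.67 ± 0.369 and Trib3 at 3.19 ± 0.405 were last. In aPU.1KO mice the order was the same at both ends, but Dnajb1 at 59.8 ± 21.9 followed the ER chaperones, with a range that overlapped that of Atf4 (58.8 ± 19.6), and Atf4 overlapped Xbp1 (48.1 ± 7.96). The ranges of Hspa5 and Hsp90b1 also overlapped there (111 ± 19.3 and 95.1 ± 8.21), as did those of Ddit3, Hspa1a, Hspa1b and Hsph1, each with the next. These lengths are of all annotated exons, so a gene whose transcripts use few of them is understated.

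Hspa5 (chromosome 2, 34771970 to 34777547, plus strand, GRCm38), the BiP chaperone, was at 519, 492 and 495 CPM in the control group and at 493, 539.9 and 381 CPM in aPU.1KO mice. The aPU.1KO mice lay on both sides of the control mice, with mouse 3 the lowest of all 6. The log2 fold change was -0.09 (SE 0.14, 95% interval -0.42 to 0.24, edgeR adjusted p = 0.712), and it was 0.04 without aPU.1KO mouse 3. Hsp90b1 (chromosome 10, 86690209 to 86705509, minus strand), which encodes GRP94, the HSP90 of the ER lumen that folds integrins and Toll-like receptors, was at 395, 376 and 346 CPM in the control group and at 379, 419 and 353 CPM in the aPU.1KO group. Its groups overlapped throughout (log2 fold change 0.04, SE 0.10, 95% interval -0.20 to 0.28, edgeR adjusted p = 0.818). Its exons share 415 bp with the gene 1810014B01Rik on the opposite strand, which held at most 258 counts in a library where Hsp90b1 held 28707.

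On the list of 22 ER chaperones and folding enzymes, all tested, the median log2 fold change was -0.09. Beside Hspa5 and Hsp90b1, 15 of the other 20 had a negative and 5 a positive log2 fold change. None was called by edgeR or by DESeq2, and 3 were lower (13.6%, beside 13.7% of all genes) and 0 higher (11.9% of all genes) at p under 0.05 before adjustment, so the share lower was that of all genes. The count of 3 became 6 without control mouse 2 (27.3%, beside 15.1% of all genes) and 0 without control mouse 1 or 3 (beside 8.1% and 10.3%). It became 2 without aPU.1KO mouse 1 or 2 (9.09%, beside 11.9% and 14.9%) and 1 without aPU.1KO mouse 3 (4.55%, beside 14.2%). Sdf2l1, a partner of BiP, was at 12.0, 8.01 and 10.9 CPM in the control group and at 7.67, 4.93 and 7.48 CPM in the aPU.1KO group (log2 fold change -0.63, SE 0.23, edgeR adjusted p = 0.156). Creld2, a disulfide isomerase induced by ER stress, was at a mean of 10.3 ± 0.920 against 7.78 ± 1.16 CPM (SD, n = 3; log2 fold change -0.40). Pdia3, which folds glycoproteins with calnexin and calreticulin, was at 281 ± 22.7 against 243 ± 1.97 CPM (log2 fold change -0.21). In these 3 genes all aPU.1KO mice were lower than all control mice, as in 5 of the 22 genes (beside 15.5% of all genes), the others being Pdia6 and Dnajc10, named after their values were seen.

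Among the transcription factors of the unfolded protein response, Xbp1 was the only one of the 10 genes whose groups did not overlap. Xbp1 (chromosome 11, 5520659 to 5525893, plus strand), whose mRNA IRE1 splices to make an active factor, was at 121, 126 and 119 CPM in the control group and at 152, 184 and 133 CPM in aPU.1KO mice. All aPU.1KO mice were above all control mice, with mouse 2 the highest. The log2 fold change was 0.36 (SE 0.12, 95% interval 0.06 to 0.65), a 1.28-fold difference, with an unadjusted p of 0.0242 and an adjusted p of 0.137 by edgeR. Its adjusted p lay between 0.0868 and 0.429 over the alternatives, and the log2 fold change was 0.22 without aPU.1KO mouse 2. Counts per gene do not separate spliced from unspliced Xbp1 mRNA, so the activity of IRE1 was not measured.

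Atf4 (chromosome 15, 80255184 to 80257541, plus strand), the factor made when initiation factor eIF2 is phosphorylated, was at 118, 128 and 118 CPM in the control group and at 116, 192 and 108 CPM in the aPU.1KO group. Mouse 2 stood above all others while mice 1 and 3 were just below the control mice. The log2 fold change was 0.19 (SE 0.22, 95% interval -0.32 to 0.70, edgeR adjusted p = 0.613), and it was -0.12 without that mouse. Atf4 is controlled mainly by translation, which mRNA levels do not show. Ddit3 (chromosome 10, 127290774 to 127296288, plus strand), which encodes CHOP, a factor downstream of ATF4 that promotes cell death when stress persists, was at 22.3, 21.5 and 25.8 CPM in the control group and at 27.9, 28.4 and 23.0 CPM in the aPU.1KO group. Mice 1 and 2 were above all control mice and mouse 3 was among them (log2 fold change 0.19, SE 0.12, 95% interval -0.10 to 0.47, edgeR adjusted p = 0.362). Ddit3 shares 68 bp of exon with Mars on the opposite strand, which held 993 to 3198 counts per library, and whether the counting used strand is not given in the sources used here. Trib3 (chromosome 2, 152337422 to 152344032, minus strand), a pseudokinase induced by ATF4 and CHOP that binds AKT, went another way: it was at 6.89, 5.87 and 7.57 CPM in the control group and at 5.59, 5.79 and 9.57 CPM in the aPU.1KO group. Here mouse 3 was the highest of all 6 (log2 fold change 0.04, SE 0.24, 95% interval -0.54 to 0.62, edgeR adjusted p = 0.928).

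**Figure D2:**
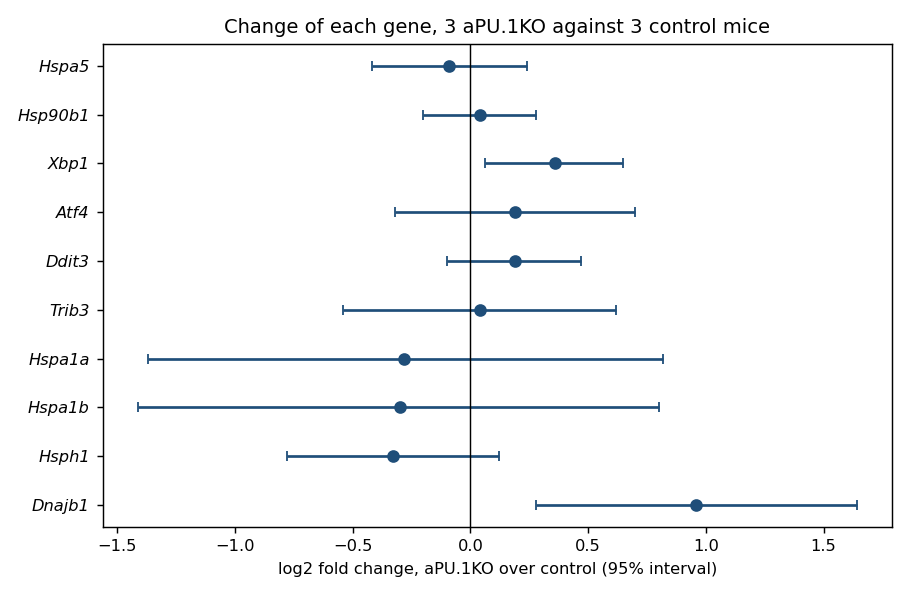
Log2 fold change of each of the 10 genes, aPU.1KO over control (points) with its 95% interval from edgeR (bars). The intervals of Dnajb1 and Xbp1 lie above 0, those of the other genes include 0, and those of Hspa1a and Hspa1b are the widest.

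Of the 15 genes listed as sensors and transcription factors, 11 had a negative log2 fold change (median -0.16), beside 6683 of all 13925 genes. The list also holds kinases of eIF2 that answer other stresses, such as Eif2ak2. Xbp1 was the 1 gene of the list higher at p under 0.05 before adjustment (6.67%, beside 11.9% of all genes). The groups did not overlap in 1 gene in the higher direction, Xbp1 (beside 16.7% of all genes). In the lower direction they did not overlap in 3, Creb3l1, Eif2ak2 and Ern1, the gene of IRE1 (beside 15.5% of all genes). Ern1 was named after its values were seen. Creb3l1, an ER-anchored factor related to ATF6 that drives collagen secretion, was at 18.5 ± 0.893 against 12.9 ± 3.07 CPM (log2 fold change -0.52, SE 0.18). Wfs1, an ER membrane protein that restrains ATF6, was at 41.7 ± 10.6 against 25.8 ± 6.51 CPM (log2 fold change -0.70, SE 0.25), with overlapping groups. Eif2ak2, the kinase PKR, was at 49.7 ± 4.41 against 42.2 ± 0.652 CPM (log2 fold change -0.24, SE 0.08). Creb3l1, Wfs1 and Eif2ak2 were the 3 genes lower at p under 0.05 before adjustment (20% of the list, beside 13.7% of all genes). None of the list was called by either tool. The 3 lower became 0 without control mouse 1 (beside 8.1% of all genes) and 1 without control mouse 3 (6.67%, beside 10.3%). Without any other mouse they were 2 or 3 (13.3% or 20%, beside 11.9% to 15.1%).

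Genes of ER-associated degradation, which pull misfolded protein out of the ER for the proteasome, had a median log2 fold change of 0.08 over 15 genes, 9 positive and 6 negative. Derl1, a channel of that pathway, was at 198, 231 and 177 CPM in the control group and at 294, 303 and 269 CPM in the aPU.1KO group, with no overlap (log2 fold change 0.51, SE 0.12, edgeR adjusted p = 0.0786, DESeq2 adjusted p = 0.00277). Selenok, a selenoprotein that binds Derl1, was at 63.5 ± 0.781 against 75.6 ± 6.55 CPM, and Syvn1, the ubiquitin ligase HRD1, at 49.5 ± 2.54 against 58.7 ± 4.69 CPM (log2 fold change 0.25 for each). These 3 genes were the ones higher at p under 0.05 before adjustment (20% of the list, beside 11.9% of all genes), and 0 were lower (13.7% of all genes). The groups did not overlap in 4 of the 15, all higher (16.7% of all genes). The 3 higher at that p became 1 (6.67%, beside 4.15% of all genes) without control mouse 1. Without any other mouse they were 2 to 4 (13.3% to 26.7%, beside 7.17% to 13.3%). With all mice, edgeR called 0 of the list and DESeq2 1, Derl1 (6.67%, beside 13.4% of all genes). Without control mouse 2, edgeR called 1 (6.67%), where it called 202 genes higher in all (1.41%).

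Genes of the ATF4 and CHOP branch, the factors and their known targets, were split in direction. Of 32 genes, among them Atf4, Ddit3 and Trib3, 18 were positive and 14 negative (median log2 fold change 0.06), 6 were higher (18.8%, beside 11.9% of all genes) and 3 lower (9.38%, beside 13.7%) at p under 0.05 before adjustment. None was called by edgeR, and DESeq2 called 3 higher and 2 lower (15.6% of the list, beside 13.4% of all genes). The 6 became 3 (9.38%, beside 4.15%, 7.17% and 10% of all genes) without control mouse 1, control mouse 3 or aPU.1KO mouse 2. They became 4 (12.5%, beside 8.83%) without aPU.1KO mouse 1, 7 (21.9%, beside 11%) without control mouse 2 and 8 (25%, beside 13.3%) without aPU.1KO mouse 3. The 3 lower became 1 (3.12%, beside 8.1%) without control mouse 1 and 2 (6.25%, beside 10.3%) without control mouse 3. Without control mouse 2, edgeR called 2 higher and 1 lower (6.25% and 3.12%, beside 1.41% and 6.93% of all genes). Chac1, which degrades glutathione and is a known ATF4 target, was at 5.26, 5.38 and 6.78 CPM in the control group and at 7.27, 15.6 and 12.8 CPM in the aPU.1KO group (log2 fold change 1.04, SE 0.29, edgeR adjusted p = 0.0980, DESeq2 adjusted p = 0.0135). Eif4ebp1, which holds back cap-dependent translation, was at 137, 178 and 125 CPM against 219, 225 and 205 CPM (log2 fold change 0.56, SE 0.14). Nupr1, a small stress-induced nuclear protein, was at 72.6 ± 4.67 against 94.7 ± 11.1 CPM (log2 fold change 0.38, SE 0.10). In all 3 genes every aPU.1KO mouse was above every control mouse, as in 5 of the 32 (beside 16.7% of all genes), and in 3 of the 32, Slc7a11, Slc3a2 and Vldlr, every aPU.1KO mouse was below every control mouse (15.5% of all genes). The 3 genes lower at p under 0.05 before adjustment, named like Vldlr after their values were seen, were Slc7a11 and Slc3a2, the subunits of the cystine transporter (log2 fold changes -1.50 and -0.31), and the secreted stress factor Gdf15 (-1.44). For Slc3a2 the values were 139, 131 and 145 CPM in the control group and 120.0, 99.9 and 116 CPM in the aPU.1KO group. Slc7a11 was scarce, at 1.997, 1.01 and 1.78 CPM against 0.457, 0.904 and 0.332 CPM. Gdf15 was at 7.12, 1.88 and 7.65 CPM in control mice, with mouse 2 the lowest as for the macrophage markers, and at 2.49, 2.71 and 0.995 CPM in aPU.1KO mice, so its groups overlapped.

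Among the cytosolic heat shock genes, Hspa1a, Hspa1b and Dnajb1 had the largest spread between mice of all 10 genes. Hspa1a (chromosome 17, 34969190 to 34972156, minus strand), an inducible HSP70, was at 55.2, 47.8 and 42.7 CPM in the control group and at 26.2, 73.9 and 20.3 CPM in the aPU.1KO group. Mouse 2 was above all control mice, and mice 1 and 3 were below all of them. Hspa1b (chromosome 17, 34956436 to 34959238, minus strand), the neighbouring copy of the gene, followed it at 46.7, 34.0 and 32.1 CPM in the control group and at 19.97, 55.8 and 15.6 CPM in the aPU.1KO group. The log2 fold changes were -0.28 for Hspa1a (SE 0.46, 95% interval -1.37 to 0.82, edgeR adjusted p = 0.737) and -0.30 for Hspa1b (SE 0.47, 95% interval -1.41 to 0.80, edgeR adjusted p = 0.712).

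Single aPU.1KO mice moved these values widely. Without mouse 2, Hspa1a was at -1.07 (edgeR adjusted p = 0.0919) and Hspa1b at -1.09 (adjusted p = 0.106). Without mouse 3 they were at 0.05 and 0.01, and without mouse 1 at -0.06 and -0.09. Leaving out a control mouse kept them between -0.42 and -0.13. The SD of log2 CPM within groups was 0.71 for Hspa1a and 0.72 for Hspa1b, above that of 92.4% and 92.7% of all genes tested, whose median was 0.18, and it came from the aPU.1KO mice (0.99 and 0.97) more than from the control mice (0.18 and 0.29).

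Reads cannot always be assigned between these copies, since their transcripts were 99.2% identical over 2201 bp, or 74.0% of the Hspa1a transcript. Summed, the pair stood at 102, 81.9 and 74.8 CPM in the control group and at 46.1, 129.7 and 36.0 CPM in the aPU.1KO group, a 3.61-fold gap between aPU.1KO mice 2 and 3. The share of the sum given to Hspa1a was 54.1% to 58.4% over all 6 mice, a split that depends on how shared reads were apportioned. Fitted as 1 gene, the log2 fold change was -0.29 (SE 0.46, 95% interval -1.39 to 0.81, edgeR adjusted p = 0.728). Hspa1a also shares 564 bp with Gm20481 on the opposite strand, which held at most 5 counts in a library.

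Hsph1 (chromosome 5, 149614287 to 149636376, minus strand) encodes HSP110, which swaps nucleotide on HSP70 and works with Dnajb1 to dissolve aggregates. It was at 58.0, 52.7 and 56.4 CPM in the control group and at 58.4, 34.0 and 40.6 CPM in the aPU.1KO group. It did not share the pattern of Hspa1a: mouse 2, the highest for Hspa1a, was the lowest for Hsph1. The log2 fold change was -0.33 (SE 0.19, 95% interval -0.78 to 0.12, edgeR adjusted p = 0.319). Without aPU.1KO mouse 1 it was -0.59 (adjusted p = 0.189) and without mouse 2 it was -0.17.

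Dnajb1 (chromosome 8, 83608193 to 83612653, plus strand), the HSP40 that hands substrates to HSP70, had the largest log2 fold change of the 10 genes. It was at 92.3, 117 and 86.7 CPM in the control group and at 215, 247 and 113 CPM in aPU.1KO mice. Mice 1 and 2 were well above every control mouse, while mouse 3 lay between control mice 1 and 2. The log2 fold change was 0.96 (SE 0.29, 95% interval 0.28 to 1.64), a 1.94-fold difference, with an unadjusted p of 0.0128 and an adjusted p of 0.109 by edgeR and an adjusted p of 0.0136 by DESeq2. Over all alternatives the adjusted p lay between 0.0136 and 0.389. The log2 fold change stayed positive when any mouse was left out, from 0.73 without aPU.1KO mouse 2 to 1.23 without mouse 3. Dnajb1 was more even in control mice (SD of log2 CPM 0.23) than in aPU.1KO mice (0.60).

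**Figure D3:**
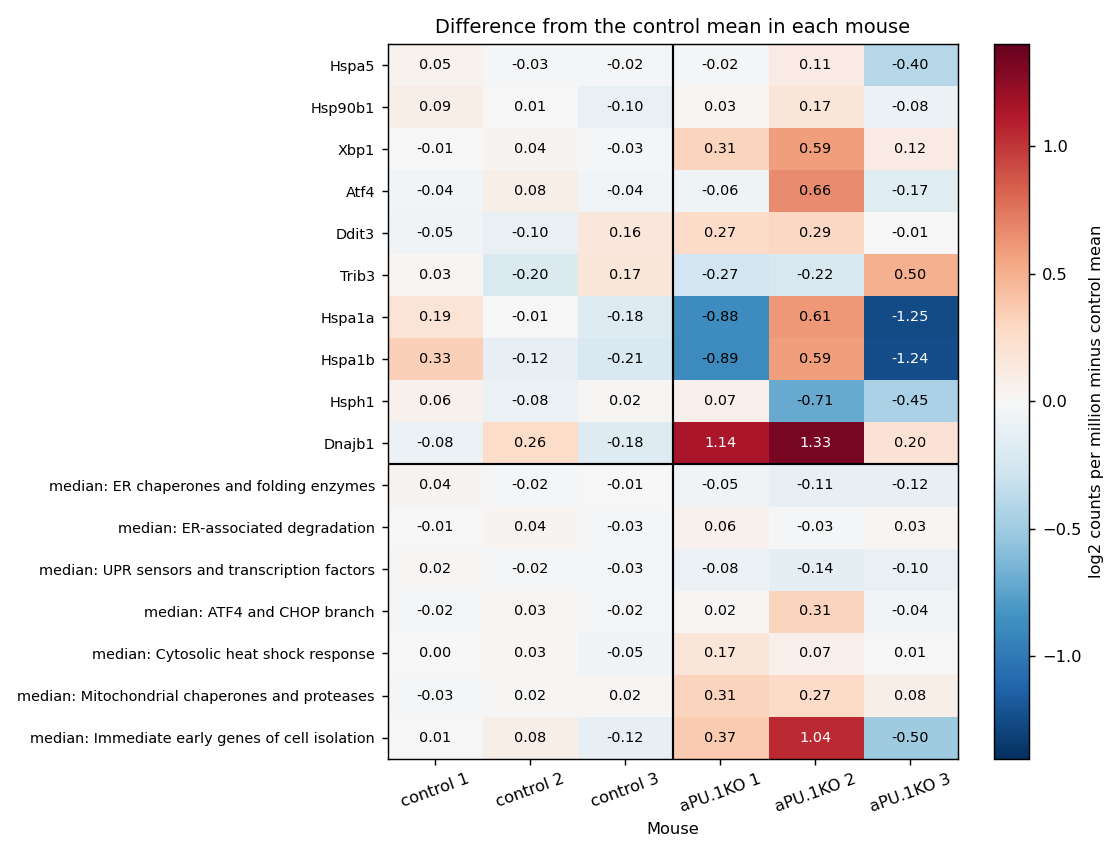
Log2 CPM minus the control mean in each of the 6 mice (columns) for the 10 genes (upper rows) and for the median of each gene list (lower rows), with red above and blue below the control mean. aPU.1KO mouse 2 is red for Atf4, Xbp1, Hspa1a, Hspa1b, Dnajb1 and the immediate early genes, and mouse 3 is blue for Hspa5, Hspa1a, Hspa1b and the immediate early genes; Hsph1 is blue in both (-0.71 and -0.45), and Trib3 is red in mouse 3 (0.50) and blue in mouse 2 (-0.22).

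The wider heat shock list had a median log2 fold change of 0.02 over the 29 of its 30 genes that were tested, with 16 positive and 13 negative, since Hspa1l was too scarce. At p under 0.05 before adjustment, 6 of the 29 were higher, Dnajb1 among them (20.7%, beside 11.9% of all genes), and 0 were lower (13.7% of all genes). DESeq2 called 4 (13.8% of the list, beside 13.4% of all genes) and edgeR 0. Hspb8, a small heat shock protein that works with Bag3 in autophagy, was at 103, 130.1 and 109 CPM in the control group and at 165, 183 and 137 CPM in the aPU.1KO group (log2 fold change 0.50, SE 0.14, edgeR adjusted p = 0.0980). Dnajb4, another HSP40, was at 122 ± 11.7 against 157 ± 13.1 CPM (log2 fold change 0.36, SE 0.10), and St13, a partner of HSP70, at 460.4 ± 20.6 against 554 ± 18.8 CPM (log2 fold change 0.27, SE 0.08). In these 3 genes the groups did not overlap, as in 6 of the 29 in the higher direction (16.7% of all genes) and 1 in the lower (15.5%). Without aPU.1KO mouse 2, 5 genes of the list were higher (17.2%, beside 10% of all genes) and 2 lower (6.9%, beside 14.9%) at that p, the 2 being Hspa1a and Hspa1b. Without mouse 3, 9 were higher (31%, beside 13.3%) and 1 lower (3.45%, beside 14.2%). The 6 became 2 (6.9%, beside 4.15%) without control mouse 1 and 3 (10.3%, beside 7.17% and 8.83%) without control mouse 3 or aPU.1KO mouse 1.

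Mitochondrial chaperones and proteases, which fold and clear protein in another compartment, had a higher median than the other chaperone lists. Of 14 genes, 13 had a positive log2 fold change (median 0.22), 7 were higher (50%, beside 11.9% of all genes) and 0 lower (13.7% of all genes) at p under 0.05 before adjustment, and 0 were called by edgeR and 4 by DESeq2 (28.6%, beside 13.4% of all genes). The 7 became 2 (14.3%, beside 4.15% and 8.83% of all genes) without control mouse 1 or aPU.1KO mouse 1 and 4 (28.6%, beside 7.17%) without control mouse 3. They became 5 (35.7%, beside 11% and 10%) without control mouse 2 or aPU.1KO mouse 2 and 9 (64.3%, beside 13.3%) without aPU.1KO mouse 3. Without control mouse 2 edgeR called 1 (7.14%, beside 1.41% of all genes called higher there). Clpp, the matrix protease, was at 23.5, 23.4 and 24.5 CPM in the control group and at 32.8, 39.0 and 32.2 CPM in the aPU.1KO group (log2 fold change 0.54, SE 0.10, edgeR adjusted p = 0.0724). Dnaja3, a mitochondrial HSP40, was at 55.6 ± 1.44 against 74.1 ± 5.99 CPM (log2 fold change 0.42, SE 0.08), and Hspd1, the chaperonin HSP60, at 348 ± 25.1 against 425 ± 27.1 CPM (log2 fold change 0.29, SE 0.10). Adipocyte markers were higher in the same mice, and their part in this was not tested.

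**Figure D4:**
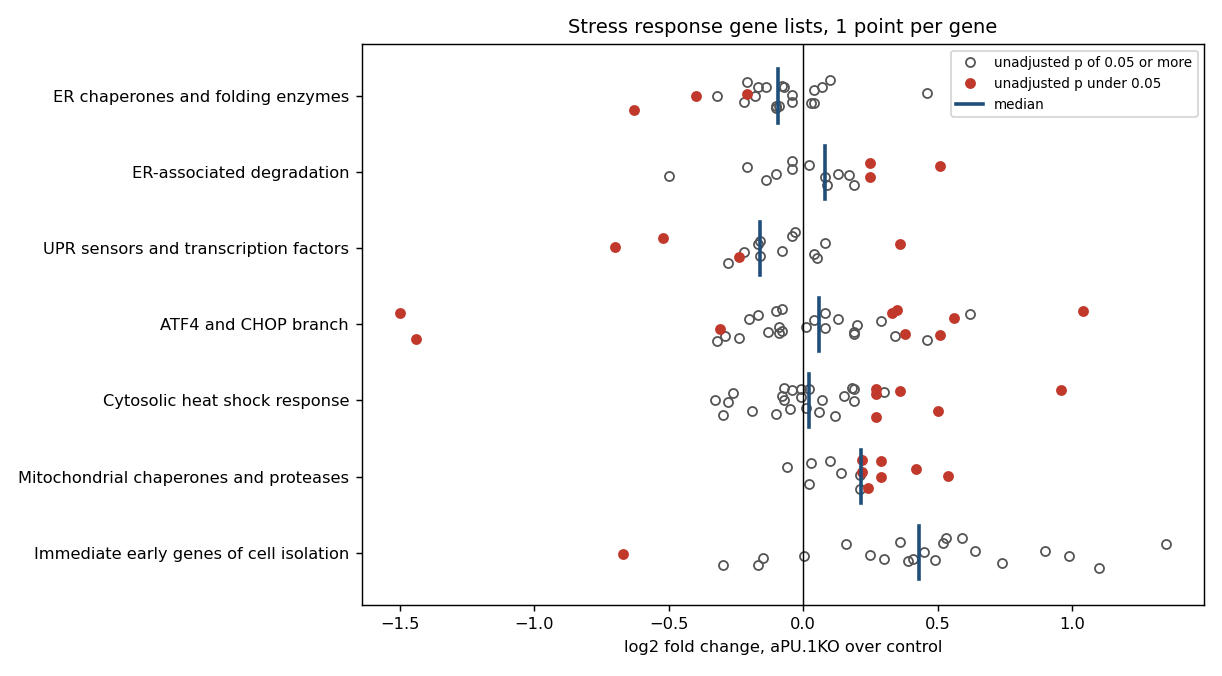
Log2 fold change, aPU.1KO over control, of each tested gene in the 7 lists (1 point per gene), filled where the unadjusted edgeR p is under 0.05, with the median of each list as a vertical bar. Medians run from -0.16 for sensors and transcription factors to 0.43 for immediate early genes, of which only Klf2, lower in aPU.1KO mice, is filled.

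Immediate early genes, which rise within minutes of tissue handling and digestion, varied between the same mice. Their median difference from the control mean was 0.37, 1.04 and -0.50 on the log2 scale in aPU.1KO mice 1, 2 and 3, and between -0.12 and 0.08 in control mice. Of 22 genes, 18 had a positive log2 fold change (median 0.43), but 0 were higher (11.9% of all genes) and 1 was lower (4.55%, beside 13.7%) at p under 0.05 before adjustment. Without aPU.1KO mouse 3, 13 were higher (59.1%, beside 13.3% of all genes) and edgeR called 1 of the list (4.55%, beside 0.035% of all genes called higher), and without aPU.1KO mouse 2, 0 were higher and 3 lower (13.6%, beside 14.9% of all genes) and the median was -0.02. Ier2, an early response regulator, was at 161, 214 and 155 CPM in the control group and at 302, 522 and 165 CPM in the aPU.1KO group, and Nfkbiz, an inducible co-regulator of NF-kB, was at 103, 115 and 87.5 CPM against 234, 473 and 70.3 CPM. In both genes aPU.1KO mouse 2 was the highest and mouse 3 was near or below the control mice. Mouse 2 was the highest and mouse 3 the lowest aPU.1KO mouse also for 8 of the 10 stress genes, all but Trib3 and Hsph1. In mouse 1, immediate early genes were above the control mean (0.37), while Hspa1a and Hspa1b were at -0.88 and -0.89. Dnajb1 was at 1.14 there, Xbp1 at 0.31 and Ddit3 at 0.27, and the rest of the 10 genes ran from -0.27 (Trib3) to 0.07 (Hsph1). The median of the heat shock list was 0.17 in that mouse. Klf2, a flow-responsive endothelial and lymphocyte factor, was at 33.2, 32.2 and 27.5 CPM against 17.0, 19.0 and 22.4 CPM (log2 fold change -0.67, SE 0.13, edgeR adjusted p = 0.0753, DESeq2 adjusted p = 0.000539). The part of cell isolation in the levels of the heat shock genes was not tested.

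The genes whose levels went most closely with a mean of stress genes over the 6 mice are given as a description. They come from 9481 genes searched, and the points share their libraries. The heat shock genes differed among themselves, so their mean does not describe each of them. From the control mean, on the log2 scale, Hspa1a was at -0.88 and Dnajb1 at 1.14 in aPU.1KO mouse 1, and Hspa1a at 0.61 and Hsph1 at -0.71 in mouse 2. With the mean of Hspa1a, Hspa1b, Hsph1 and Dnajb1, the closest were Dusp6 (Pearson r = 0.991 over 6 libraries), a phosphatase that shuts off ERK, the transcription factor Usf1 (0.986), and Msl2 (0.984), a subunit of a histone acetyltransferase complex. With the mean of Hspa5 and Hsp90b1, they were the ubiquitin ligase Peli1 (0.984), Dusp6 again (0.983) and the RNA-binding protein Hnrnpab (0.977). Dusp6 was at 28.0, 26.9 and 22.7 CPM in the control group and at 23.8, 33.1 and 16.0 CPM in the aPU.1KO group, highest in mouse 2 and lowest in mouse 3. None of these 5 genes was called by edgeR, with adjusted p-values from 0.846 to 0.981.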

How the data were processed

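RNA-sequencing covered adipocytes of 3 mice per genotype. The values are estimated counts that the authors made with Salmon for each transcript and added up by gene, and since every deposited value is whole, none was rounded here. Submitters' processing notes name GRCm38; the Salmon version and annotation are not given in the sources used here. Symbols, coordinates and exon lengths are from GENCODE M21 (GRCm38) and promoter windows from RefSeq (GRCm38.p6); rows with no symbol hold 0.0367% of counts. Ages differ between the sources (10 to 11 months in the labels, over 1 year in the paper). No batch is named for these libraries in the sources used here.

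The contrast of aPU.1KO with control was fitted by the quasi-likelihood method of edgeR 4.0.16 under R 4.3.3 (low counts removed by filterByExpr, TMM scaling, default glmQLFit), with Benjamini-Hochberg adjustment over all 13925 genes tested. This replaces DESeq2, which the study used and which is an alternative here (1.42.0), as are RLE and upper-quartile scaling, at least 10 counts in every library, no filter, limma-voom 3.58.1, robust fitting, each mouse left out in turn and, added after seeing the data, legacy = FALSE. CPM is TMM-scaled, and log2 CPM used a prior count of 2. Sequence identity was found with BLAST 2.17.0. The scripts were tested on simulated data before use, with 200 of 13925 genes changed. There edgeR called 55 of 100 genes changed 2-fold, 88 of 100 changed 4-fold and 12 unchanged genes. DESeq2 called 66, 90 and 54.

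The 10 genes and the 7 pathway and 7 cell type lists were chosen with earlier results of these data known, so no list was tested. Beside the 10 genes and Spi1, the genes named are the 3 of each pathway list with the smallest unadjusted p that are not among the 10, and the 3 genes (average log2 CPM of at least 3) most correlated with the mean of the heat shock and with the mean of the ER chaperone genes. Slc7a11, Slc3a2, Gdf15, Vldlr, Pdia6, Dnajc10 and Ern1 were named outside this rule, after their values were seen. Within each group, every pair of libraries differed beyond sampling noise, with a chi-square over its degrees of freedom of at least 20.4.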

Additional observations from a re-analysis of the deposited data

How the results depend on the processing

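With 3 mice in a group, an exact test over mice cannot go below p = 0.1, so calls rest on spread shared over genes, and the 95% intervals of Hspa1a and Hspa1b span more than a 2-fold change in the lower direction. Counts of called genes depended on the processing: beside 8 higher and 25 lower, they were 2 and 3 with at least 10 counts in every library, 21 and 125 with no filter, and 653 and 1216 with DESeq2, and leaving out 1 mouse gave 0 to 202 higher and 0 to 991 lower, both highest without control mouse 2. Of the 10 genes, DESeq2 called 1 higher (Dnajb1, log2 fold change 0.94, adjusted p = 0.0136), and no other alternative called any. With 1 mouse left out, 1 to 3 of the 10 were higher and 0 to 2 lower before adjustment (p under 0.05). Leaving out control mouse 1 or control mouse 3 took Xbp1 out of that count.

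Leaving out 1 mouse turned the sign of log2 fold changes near 0: -0.20 to 0.04 for Hspa5, -0.03 to 0.10 for Hsp90b1 (-0.01 without control mouse 3), -0.12 to 0.34 for Atf4, -0.25 to 0.17 for Trib3 (-0.06 without control mouse 2), -1.07 to 0.05 for Hspa1a and -1.09 to 0.01 for Hspa1b. With limma-voom, Trib3 was at -0.0039, Hspa1a at -0.49 and Hspa1b at -0.51, and the medians of the ATF4 and CHOP branch and of immediate early genes were -0.03 and 0.23, against 0.06 and 0.43 with edgeR. With at least 10 counts in every library, the median of heat shock genes was -0.0033 (0.02 before). Ddit3, Xbp1, Hsph1 and Dnajb1 kept their sign in every alternative run. List medians with 1 mouse left out ran from -0.13 to -0.08 for ER chaperones, -0.0035 to 0.06 for ER-associated degradation, -0.18 to -0.09 for sensors and factors, 0.0036 to 0.15 for the ATF4 and CHOP branch, -0.02 to 0.10 for heat shock genes, 0.17 to 0.28 for mitochondrial chaperones and -0.02 to 0.78 for immediate early genes. The cause of these shifts was not tested. No paired analysis was possible because the labels give the groups no shared replicate numbers.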
